A study of Homo sapiens with 7 samples.

Results

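Cytosolic and mitochondrial heat shock proteins were examined in HT1080, a cell line from a human fibrosarcoma, through 84 of the 19775 genes measured on 7 expression arrays. The members were taken by gene symbol: the HSP70 and HSP110 families (HSPA, HSPH), HSP90 (HSP90A), small heat shock proteins (HSPB), the mitochondrial chaperonins (HSPD, HSPE), the J proteins (DNAJA, DNAJB, DNAJC), the chaperonin TRiC (CCT), the nucleotide exchange factors BAG1 to BAG5, and STIP1, FKBP4 and HSF1. HSPA5, DNAJB9 and DNAJC3, which work in the endoplasmic reticulum, were left out of the set. Members were read only from probe sets that the array's annotation assigns to a single gene, which gave 194 probe sets. Of the 84 members, 79 code for protein and 5 are noncoding transcripts whose symbols share a prefix (DNAJC9-AS1, HSPA2-AS1, DNAJC27-AS1, DNAJB8-AS1 and DNAJC3-DT).

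Each of the 7 cultures was measured on 1 array. The cells received 5% serum from patients who had taken pycnogenol, a pine bark extract, for 2 h, or 5% control serum for 2 h. The polyphenol cultures held catechin (11.25 ng/ml), epicatechin (6.25 ng/ml), taxifolin (6.25 ng/ml) or resveratrol (2195 ng/ml), again for 2 h, and 1 culture was untreated. The labels describe a change of medium before a compound or serum was added, without saying if the fresh medium contained bovine serum, and they give neither a time nor a medium change nor a solvent for the untreated culture. A difference from the untreated array can include these steps. The catechin, epicatechin, taxifolin, resveratrol and untreated arrays are called the 5 arrays without test serum. With 1 array in each group there was no replicate error, and no difference between groups could be tested. The 2 serum arrays and the 5 others are different treatments and not replicates, so their contrast is also given as a description. Counts of members are set beside the same count over all genes. In bulk RNA, fewer cells with a transcript and less of it in each cell cannot be told apart.

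Heat shock proteins bind unfolded proteins and help them to fold. HSP70 works in cycles of ATP hydrolysis that J proteins start and that HSP110 and BAG proteins end by releasing the nucleotide, HSP90 completes the folding of kinases and steroid receptors, and TRiC folds actin and tubulin inside a barrel. When unfolded proteins accumulate, the transcription factor HSF1 binds heat shock elements, inverted repeats of the bases GAA, before the inducible members of these families, while other members are made at all times.

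The heat shock elements were located in the promoter windows of RefSeq on GRCh38.p14, which run from 250 bases before to 50 bases after a transcript's start. A 3-unit element was searched as GAANNTTCNNGAA or TTCNNGAANNTTC, which are each other's reverse complement, and a 2-unit element as GAANNTTC or TTCNNGAA, which read the same on both strands; every 3-unit element holds 2-unit elements. The stretches below were chosen by name from members, and from HSPA1A and HSPA1B, with an element before the start. Other members with an element are not shown, and no element was found for HSPA2, HSPA12A or HSPH1. The 3-unit element of DNAJA1 lies after the start and is not printed. Capitals mark the 3-unit elements of the first 4 genes and the 2-unit elements of the other 5, and a further 2-unit match of HSP90AA1 beside its 3-unit element stays in lower case.
HSP90AA1: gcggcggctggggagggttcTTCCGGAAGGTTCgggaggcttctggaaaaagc
HSP90AB1: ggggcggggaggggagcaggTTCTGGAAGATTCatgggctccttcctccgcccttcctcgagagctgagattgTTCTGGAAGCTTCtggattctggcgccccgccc
HSPD1: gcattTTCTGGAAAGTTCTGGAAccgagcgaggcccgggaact
DNAJB6: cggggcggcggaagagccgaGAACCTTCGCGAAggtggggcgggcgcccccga
DNAJB1: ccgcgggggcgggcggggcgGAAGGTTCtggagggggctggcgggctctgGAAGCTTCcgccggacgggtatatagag
DNAJB4: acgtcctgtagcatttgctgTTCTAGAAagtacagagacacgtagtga
HSPA4L: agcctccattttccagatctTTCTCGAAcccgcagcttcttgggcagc
HSPA1A: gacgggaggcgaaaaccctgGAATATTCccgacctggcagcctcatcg
HSPA1B: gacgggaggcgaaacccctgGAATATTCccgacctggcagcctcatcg
The HSP90AA1 stretch is chr14:102087100-102087152 on the minus strand, the HSP90AB1 stretch chr6:44247758-44247863 on the plus strand, the HSPD1 stretch chr2:197500048-197500090 on the minus strand and the DNAJB6 stretch chr7:157336853-157336905 on the plus strand; these hold 3-unit elements. The DNAJB1 stretch is chr19:14518417-14518494 on the minus strand, the DNAJB4 stretch chr1:78004821-78004868 on the plus strand, the HSPA4L stretch chr4:127782132-127782179 on the plus strand, the HSPA1A stretch chr6:31815417-31815464 on the plus strand and the HSPA1B stretch chr6:31827613-31827660 on the plus strand; these hold 2-unit elements.

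A 3-unit element was present in 0.49% of all 35116 promoter windows and, counted over genes, in 5 of the 51 members above the signal filter that have a window (9.8%): HSP90AA1, HSP90AB1, HSPD1, DNAJB6 and DNAJA1. It was present in 40 of 8241 genes above the filter that have a window (0.485%). A 2-unit element was present in 13.5% of all windows, in 13.8% of those genes and in 16 of the 51 members (31.4%). HSPA2 and HSPH1 held neither element in their windows. A match describes the letters of the window and does not show that a factor binds there.

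The values are Affymetrix MAS5 signals on a linear scale, and each difference is the log2 signal on the array named first less that on the array named after it, called at 1.5-fold. The median signal over all probe sets lay at 114 to 136 on the 7 arrays. The ratio of 3' to 5' signal of the actin control probe sets was 2.82 and 2.55 with pycnogenol and control serum. It was 3.56 with catechin, 4.02 with epicatechin, 3.05 with taxifolin, 2.52 with resveratrol and 2.40 untreated. The serum arrays lay within the range of the others, for this ratio and for that of the GAPDH control probe sets. The part of the actin ratios in the results below was not tested. The standard deviation of the log2 differences over all 9888 genes above the signal filter, which lay at a signal of 269, was 0.323 to 0.387 for pairs of a serum array with an array without it, 0.277 for the pair of serum arrays and 0.235 to 0.282 for pairs of arrays without test serum. Of 8 mesenchymal markers, 6 lay above the filter (VIM, FN1, LGALS1, CD44, CAV1 and TPM2), with a summed list signal of 182824 to 183512 on the serum arrays and 176053 to 183649 on the other arrays. Of 4 epithelial markers none lay above it, with sums of 106 to 172 on the serum arrays and 136 to 240 on the others. Of 5 blood markers HBB alone lay above it, with list sums of 681 to 806 on the serum arrays and 456 to 657 on the others, and its part in the results below was not tested. Of 3 endothelial markers TIE1 alone lay above it, with list sums of 1009 to 1079 on the serum arrays and 972 to 1181 on the others.

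Of the 84 members, 59 lay above the signal filter, all of them protein coding, and the comparisons below are over these. The other 25 had signals from 2.03 to 367, and 18 of them stayed under the filter's signal on every array. They include HSPB1 (HSP27), with 22.6 to 133, the strictly inducible HSPA6, with 108 to 263, and HSPA1L, a testis HSP70, with 162 to 276. HSF2 was not analysed here. HSPA1A, HSPA1B, HSPA8 and TCP1 are represented only by probe sets that the annotation gives to several genes, and those probe sets are described apart.

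Against the untreated array, the control serum array had higher signals for the inducible J proteins DNAJB1 and DNAJB4, for HSPH1 and for the HSP70 genes HSPA2 and HSPA12A, and a lower signal for HSPA13. The median difference over the 59 members was 0.15, against 0.0076 over all 9888 genes. Of the members 43 of 59 (72.9%) lay above 0, against 51.3% of all genes. At 1.5-fold, 5 members were higher, where 3.17% of all genes were, and 1 was lower, where 4.66% of all genes were. At 2-fold, HSPA2 and DNAJB4 were higher, where 0.445% of all genes were, and none was lower, where 0.758% were.

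HSPA2, an HSP70 known mainly from testis, had signals of 493 with pycnogenol serum and 709 with control serum, 396 with catechin, 306 with epicatechin, 300 with taxifolin, 452 with resveratrol and 245 untreated. Its control serum signal was the highest of the 7 and its untreated signal the lowest, and the serum arrays did not overlap the others. The untreated signal lay under the filter's signal of 269, and it enters every HSPA2 difference from untreated. The difference of control serum minus untreated was 1.54 (2.90-fold), on the gene's single probe set above the filter. HSPA12A, a distant HSP70 relative, had signals of 580 and 665 with pycnogenol and control serum, 455, 452, 488 and 417 with the compounds in that order and 408 untreated, a difference of 0.71 for control serum minus untreated. HSPA12A also had a single probe set above the filter, and the average of all its probe sets gave 0.35, under 1.5-fold.

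HSPA14, a ribosome-associated HSP70, lay at 6802 and 6464 with pycnogenol and control serum, 5911, 5913, 5534 and 6722 with the compounds and 5827 untreated. The resveratrol signal lay between those of the serum arrays, so the groups overlapped, and control serum minus untreated was 0.15.

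HSPH1, the inducible HSP110 that exchanges nucleotide on HSP70, had signals of 22376 and 21780 with pycnogenol and control serum, 14710, 14653, 16458 and 15103 with the compounds and 12966 untreated. Both serum arrays lay above all 5 others and the untreated array lay lowest. Control serum minus untreated was 0.75 (1.68-fold), and the other 2 HSPH1 probe sets above the filter gave 0.68 and 0.61. HSPA4L, a second HSP110, had 2105 and 1586 with pycnogenol and control serum, 1388, 1435, 1358 and 1226 with the compounds and 1233 untreated. Its serum arrays also lay above the others, at 0.36 for control serum minus untreated. HSPA4, the constitutive HSP110, overlapped between the groups, at 10685 and 13016 on the serum arrays and 9757 to 12610 on the other 5.

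DNAJB1 (HSP40), the main inducible partner of HSP70, had signals of 7469 and 6226 with pycnogenol and control serum, 4834, 4732, 5605 and 4709 with the compounds and 3980 untreated. DNAJB4, a close relative, had 3265 and 3232 with pycnogenol and control serum, 1918, 1742, 1898 and 2043 with the compounds and 1546 untreated. For both genes the serum arrays did not overlap the others and the untreated array was lowest. Control serum minus untreated was 0.65 (1.56-fold) for DNAJB1, with 0.73 on its second probe set, and 1.06 (2.09-fold) for DNAJB4, with 0.90 on its second. DNAJA1, a J protein with a zinc finger, had 26976 and 27793 with pycnogenol and control serum, 19079, 19604, 21857 and 21392 with the compounds and 19865 untreated, again without overlap, at 0.48 and, on its second probe set, 0.64. Of the 3 genes, DNAJA1 did not reach 1.5-fold on the probe set used.

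**Figure D1:**
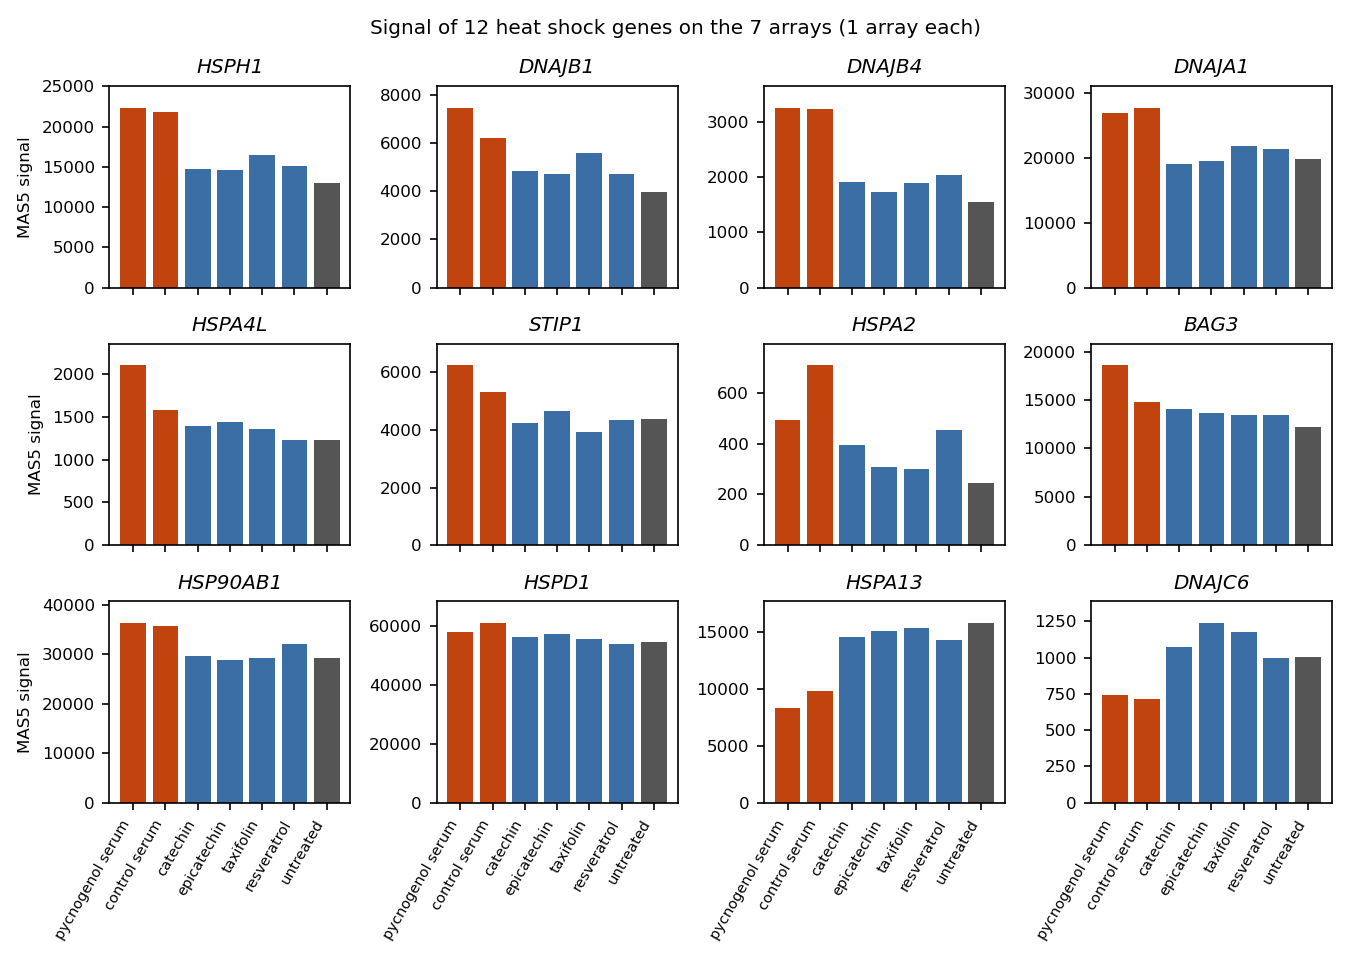
MAS5 signal (y axis, linear, from 0) of 12 heat shock genes on each of the 7 arrays (x axis, 1 bar for 1 array, orange for serum, blue for compounds, grey for untreated). HSPH1, DNAJB1, DNAJB4, DNAJA1, HSPA4L, STIP1, HSPA2, BAG3, HSP90AB1 and HSPD1 were higher on both serum arrays than on the 5 others, and HSPA13 and DNAJC6 were lower on both.

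The J proteins did not share 1 direction. Of 7 DNAJB genes, 6 lay above 0 for control serum minus untreated, with a median of 0.31, and 3 had both serum arrays above the others (DNAJB1, DNAJB4 and DNAJB2), where 51.3% and 13.5% of all genes did. DNAJB6, which suppresses protein aggregation, ran the other way, at 5828 and 5316 with pycnogenol and control serum, 7135, 7533, 7708 and 7377 with the compounds and 6363 untreated. Its serum arrays lay below all others, at -0.26, but the 2 probe sets that the annotation gives to DNAJB6 and TMEM135 together overlapped between the groups and gave 0.06 and 0.16.

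In the DNAJC genes, a diverse class, the J domain is joined to other functions. Of these 21 genes 10 lay above 0 for control serum minus untreated, where 51.3% of all genes did, and 11 below, with a median of -0.014. Both serum arrays lay above the others for DNAJC2, DNAJC5, DNAJC7, DNAJC8, DNAJC9 and DNAJC14, at control serum minus untreated of 0.04 (DNAJC7) to 0.39 (DNAJC9). They lay below the others for DNAJC6, DNAJC13, DNAJC17 and DNAJC18. That was 6 and 4 of the 21, where 13.5% of all genes lay above and 16.1% below. DNAJC6 (auxilin), which helps HSC70 strip clathrin from vesicles, had 745 and 715 with pycnogenol and control serum, 1075, 1240, 1178 and 999 with the compounds and 1006 untreated. That was -0.49 for control serum minus untreated, and the mean of all its probe sets gave -0.26.

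HSP90AB1, the constitutive cytosolic HSP90, had signals of 36353 and 35596 with pycnogenol and control serum, 29699, 28736, 29288 and 32128 with the compounds and 29303 untreated. HSP90AA1, the inducible one, had 59860 and 56449 with pycnogenol and control serum, 54758, 54251, 58271 and 53628 with the compounds and 51866 untreated. The serum arrays stood apart for HSP90AB1, at 0.28 for control serum minus untreated, and overlapped with taxifolin for HSP90AA1, at 0.12. Probe sets of both genes differed among themselves: both serum arrays lay above the others on 1 of 3 for HSP90AB1 and on 2 of 4 for HSP90AA1. STIP1 (HOP), which links HSP70 to HSP90, had 6250 and 5321 with pycnogenol and control serum, 4253, 4644, 3919 and 4359 with the compounds and 4383 untreated, without overlap and at 0.28. FKBP4, an HSP90 co-chaperone of steroid receptors, overlapped between the groups at 0.04.

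BAG3, which links HSP70 to selective autophagy and is itself inducible, had 18596 and 14766 with pycnogenol and control serum, 14027, 13609, 13460 and 13409 with the compounds and 12172 untreated. Its serum arrays lay above the others, those of BAG2 did too at 0.40 for control serum minus untreated, and BAG1, BAG4 and BAG5 overlapped, at 0.45, -0.12 and 0.14. HSPB8, a small heat shock protein that works with BAG3, had 1309 and 1340 with pycnogenol and control serum, 1018, 903, 987 and 1061 with the compounds and 1039 untreated, which was 0.37 without overlap. HSF1 itself overlapped, at 955 and 1058 on the serum arrays, 900 to 1050 with the compounds and 828 untreated.

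The TRiC subunits differed little between control serum and untreated. All 7 above the filter lay above 0 for control serum minus untreated, from 0.01 (CCT7) to 0.32 (CCT3), with 0.14 as their median; 1.5-fold was not reached by any, and 6 had both serum arrays above the others. Of all genes, 51.3% lay above 0 and 13.5% had both serum arrays above. CCT3 had 20014 and 21660 with pycnogenol and control serum, 15503, 18043, 14726 and 19746 with the compounds and 17336 untreated, so its resveratrol array lay just below the serum arrays. CCT8 was the exception, with 33579 and 35589 on the serum arrays and 33370 to 37935 on the other 5.

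The mitochondrial chaperones had no common direction, with a median of 0.01 over 4 genes. HSPD1 (HSP60), the mitochondrial chaperonin, had 57916 and 61077 with pycnogenol and control serum, 56272, 57289, 55512 and 53804 with the compounds and 54674 untreated, a difference of 0.16 without overlap. The difference was 0.0044 with all HSPD1 probe sets averaged, including those under the filter, and 0.33 without the probe sets of suffix _x_at or _s_at. Its co-chaperonin HSPE1 (HSP10), which shares a bidirectional promoter with it, had 32712 and 27451 with pycnogenol and control serum, 29873, 26926, 26615 and 25506 with the compounds and 25256 untreated, and overlapped with catechin. HSPA9 (mortalin), the mitochondrial HSP70, lay below the others on both serum arrays, at 21895 and 21882 against 23024 to 24954, and DNAJA3, its J protein, overlapped.

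The symbol rule also keeps genes above the filter whose proteins reside in the endoplasmic reticulum, among them HSPA13, DNAJB11, DNAJC1 and DNAJC10. HSPA13 (STCH) had 8368 and 9854 with pycnogenol and control serum, 14601, 15136, 15424 and 14370 with the compounds and 15859 untreated. Both serum arrays lay far below the others, and control serum minus untreated was -0.69 (0.621-fold), the lowest of the 59 members. The second HSPA13 probe set overlapped between the groups, at -0.16. DNAJB11 at 0.33, DNAJC1 at -0.07 and DNAJC10 at 0.07 overlapped as well.

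**Figure D2:**
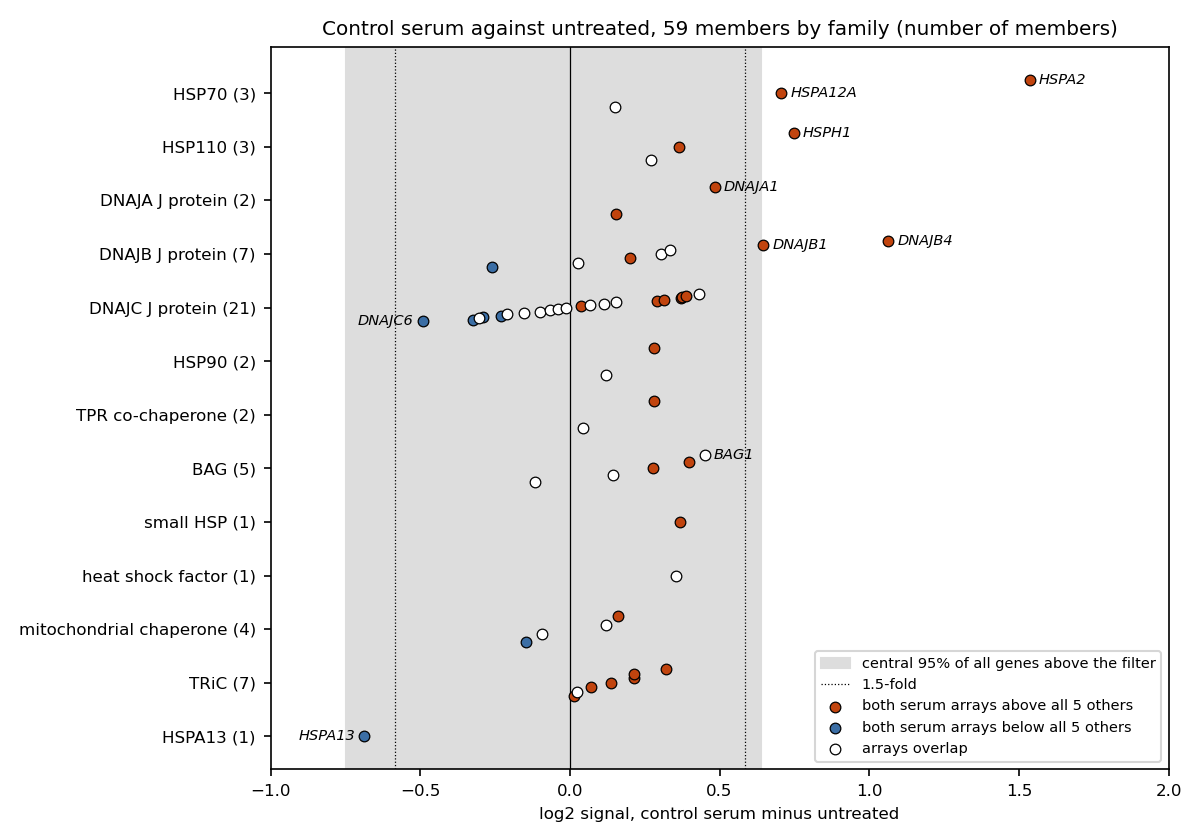
log2 signal of control serum minus untreated (x axis) for the 59 members above the filter, 1 point for 1 gene, by family (y axis, number of members in brackets). HSPA2 at 1.54, DNAJB4 at 1.06, HSPH1 at 0.75, HSPA12A at 0.71 and DNAJB1 at 0.65 lie right of the 1.5-fold line and HSPA13 at -0.69 left of it, while orange and blue mark the 27 and 7 members whose 2 serum arrays lie above or below all 5 others and grey spans the central 95% of all genes.

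Over all 7 arrays, both serum arrays lay above the 5 others for 27 of the 59 members (45.8%), where 13.5% of all genes did, and below them for 7 members (11.9%), where 16.1% of all genes did. The median of both serum arrays minus the 5 others was 0.10 over members and -0.01 over all genes. In this contrast 2 members were 1.5-fold higher, DNAJB4 at 0.84 and HSPA2 at 0.83, where 148 of 9888 genes were. HSPA13 at -0.73 and DNAJC6 at -0.59 were lower, where 312 genes were. HSPH1 at 0.58, DNAJB1 at 0.52 and HSPA12A at 0.49 stayed under 1.5-fold, unlike for control serum minus untreated. Among the 43 members above the 75th percentile of gene means, 20 lay above (46.5%), where 16.7% of all genes that bright did. Counted over single probe sets, 45 of the 122 member probe sets above the filter lay above the others (36.9%), against 12.5% of 17655. Of the 27 genes, 10 had 1 probe set above the filter, and 17 had several. All of those probe sets lay above the others for 8 genes: CCT6A, DNAJA1, DNAJA2, DNAJB1, DNAJB4, DNAJC9, HSPD1 and HSPH1. This count asks for no minimum gap, and some gaps were narrow. The lower serum signal and the highest other signal were 3313 and 3298 for DNAJC14, 30537 and 30357 for CCT4 and 22674 and 22536 for CCT7. For HSPH1 they were 21780 and 16458. Any difference in handling between the 2 serum cultures and the 5 others cannot be told apart from the serum. The 27 members are BAG2, BAG3, CCT2, CCT3, CCT4, CCT5, CCT6A, CCT7, DNAJA1, DNAJA2, DNAJB1, DNAJB2, DNAJB4, DNAJC2, DNAJC5, DNAJC7, DNAJC8, DNAJC9, DNAJC14, HSP90AB1, HSPA2, HSPA4L, HSPA12A, HSPB8, HSPD1, HSPH1 and STIP1.

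**Figure D3:**
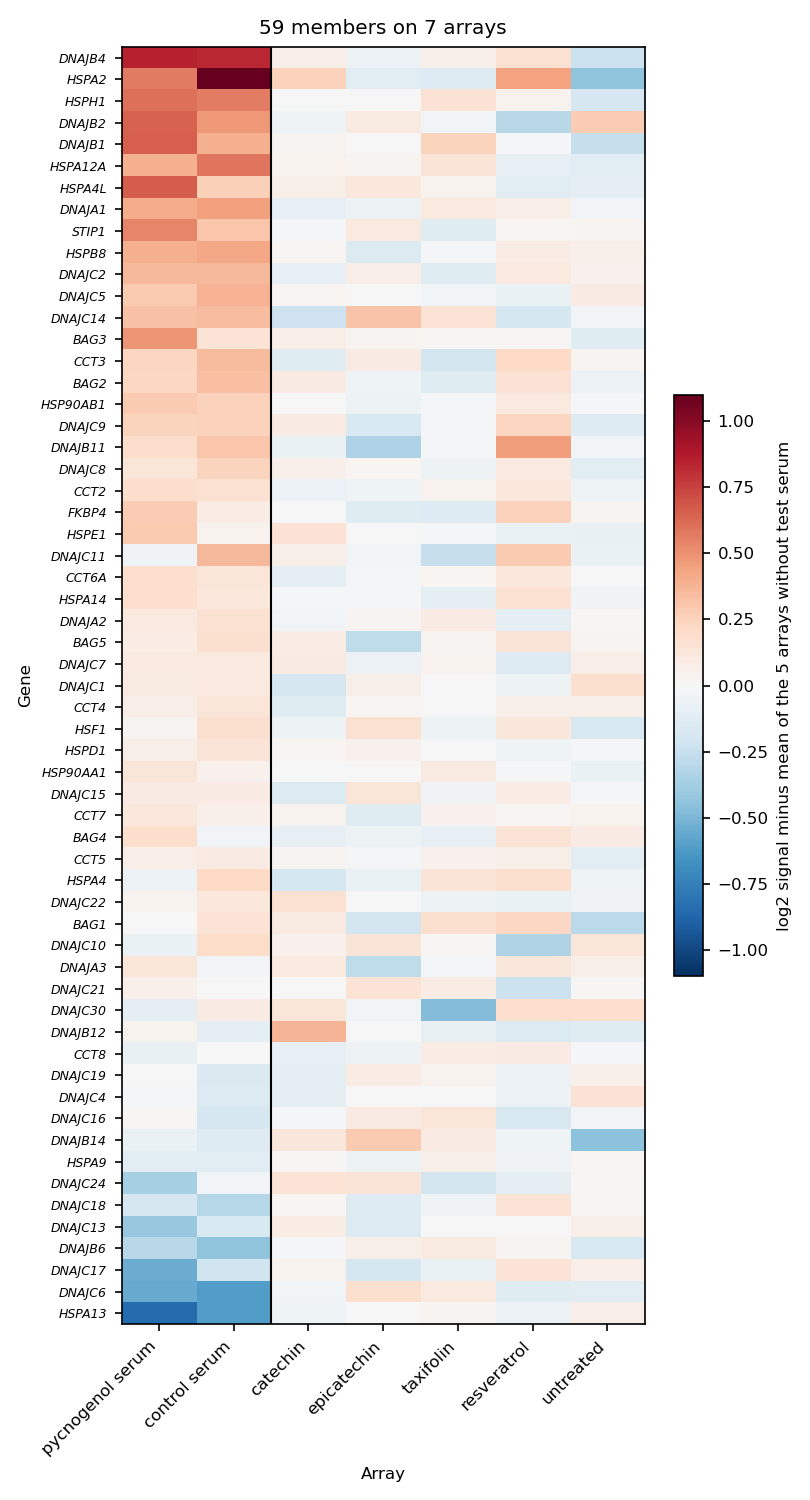
log2 signal of the 59 members (rows) on the 7 arrays (columns), shown as the difference from the gene's mean on the 5 arrays without test serum, in colour (red higher, blue lower). Rows are ordered by the mean of both serum arrays minus that of the others, so that the upper rows, led by DNAJB4 and HSPA2, are red on both serum arrays and the lowest, HSPA13 and DNAJC6, are blue on both.

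The 16 members with a 2-unit heat shock element in their promoter window had a median of 0.25 for control serum minus untreated, with 13 above 0 and 11 whose serum arrays both lay above the others. The 35 members with a window but no such element had a median of 0.15, with 25 above 0 and 15 whose serum arrays both lay above. The shares over all genes were 51.3% above 0 and 13.5% with both serum arrays above. The ranges overlapped widely, at -0.49 to 1.06 with the element and -0.69 to 1.54 without it. Of the 5 genes with a 3-unit element, DNAJA1, HSP90AB1 and HSPD1 had both serum arrays above the others, HSP90AA1 overlapped and DNAJB6 lay below.

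The 3 probe sets that the annotation assigns to both HSPA1A and HSPA1B, the major heat-inducible HSP70 genes whose coding sequences are nearly the same, are outside the member rule. Their differences for control serum minus untreated were larger than that of any member. The brightest had signals of 27759 with pycnogenol serum and 25479 with control serum, 9343, 8375, 9120 and 8881 with the compounds and 6827 untreated. On each of the 3 probe sets both serum arrays lay above all others and the untreated array lay lowest. Both serum arrays lay above on 12.5% of 17655 single-gene probe sets. Control serum minus untreated was 1.83 to 2.01 (3.55-fold to 4.03-fold), pycnogenol serum minus control serum 0.12 to 0.36, and the compounds minus untreated 0.45 to 0.59 for catechin, 0.12 to 0.29 for epicatechin, 0.42 to 0.52 for taxifolin and 0.36 to 0.46 for resveratrol. The probe set at 2.01 is also assigned to HSPA1L, and it reached 1.5-fold with catechin as well, at 0.59, where 1.98% of all genes did. Which of the genes gave the signal cannot be told from these probe sets.

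The 4 probe sets that HSPA8, the constitutive HSC70, shares with small nucleolar RNAs in its introns gave 0.17 to 0.41 for control serum minus untreated, and both serum arrays lay above the others on 3 of them. The 3 probe sets that TCP1, a TRiC subunit, shares with SNORA29 gave 0.06 to 0.62, with both serum arrays above the others on 1. Of 17655 single-gene probe sets above the filter, 12.5% had both serum arrays above. Probe sets of the same gene are not separate observations.

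Between pycnogenol serum and control serum the 59 members differed by less than 1.5-fold on the probe set used for each gene. The standard deviation of the difference was 0.18 over the 59 members and 0.28 over all genes. The members were brighter, with a median of 5956 for a gene's mean signal, against 2168 over all genes. Above the 75th percentile of gene means the standard deviation was 0.15 over 43 members and 0.21 over 4944 genes. The median was -0.0033 over the members and 0.0083 over all genes, with 28 members above 0 (47.5%), where 51.6% of all genes were. No member reached 1.5-fold in either direction, where 1.90% of all genes were higher and 2.34% lower. Of the 4944 brighter genes, 31 were higher and 38 lower by 1.5-fold. The largest differences were lower for HSPA2 at -0.52, DNAJC11 at -0.39, DNAJC24 at -0.34, DNAJC17 at -0.33, HSPA4 at -0.28 and DNAJC10 at -0.27, and higher for HSPA4L at 0.41, BAG3 at 0.33, DNAJB1 at 0.26 and HSPE1 at 0.25. The second DNAJB4 probe set gave -0.79 where the first gave 0.01, and the second HSPA13 probe set gave -1.08 where the first gave -0.24. The 63 further probe sets of members had the sign of the gene's first probe set in 30 cases. This comparison shares the control serum array with that of control serum against untreated, so a high or low value on that array enters both with opposite sign; for HSPA2 the values were -0.52 and 1.54.

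The 4 compounds were each compared with the same untreated array, which enters all their differences. The member medians were 0.02 for catechin, epicatechin and taxifolin and 0.06 for resveratrol, against 0.04, 0.03, 0.03 and 0.03 over all genes. With catechin 1 member was 1.5-fold higher, HSPA2 at 0.69, where 1.98% of all genes were, and none was lower, where 1.57% of all genes were. With epicatechin DNAJB14 was higher at 0.73, where 1.49% of all genes were, and none was lower, where 1.33% were; neither of its 2 other probe sets above the filter had that sign. With taxifolin DNAJC30 was lower at -0.66, where 1.84% of all genes were, and none was higher, where 1.46% were. With resveratrol HSPA2 was higher at 0.89, where 2.29% of all genes were, and none was lower, where 2.17% were.

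The next largest values with catechin were DNAJB14 at 0.57, DNAJB12 at 0.51 and BAG1 at 0.40, and DNAJC1 at -0.36. With epicatechin they were DNAJC14 at 0.35, HSF1 at 0.34 and HSPA2 at 0.32, and DNAJA3 at -0.34. With taxifolin they were DNAJB14 at 0.53, DNAJB1 at 0.49 and BAG1 at 0.47. With resveratrol they were DNAJB2 at -0.58, BAG1 at 0.53, DNAJB11 at 0.49 and DNAJC10 at -0.46. DNAJB14 and BAG1 had their lowest signals of the 5 arrays without test serum on the untreated array, with 3822 to 4810 on the compound arrays and 2896 untreated for DNAJB14, and 1688 to 2278 on the compound arrays and 1580 untreated for BAG1.

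Among the classic heat-inducible genes, 8 lay above the filter: HSPH1, DNAJB1, DNAJB4, DNAJA1, BAG3, HSP90AA1, HSPD1 and HSPE1. With control serum all 8 lay above untreated, with a median of 0.38 and 3 at 1.5-fold, where 51.3% of all genes lay above 0 and 3.17% were at 1.5-fold. With the compounds the medians were 0.19 for catechin, 0.13 for epicatechin, 0.16 for taxifolin and 0.12 for resveratrol, 7, 7, 8 and 7 genes lay above 0, where 57.6%, 57.3%, 57.2% and 54.8% of all genes did, and none reached 1.5-fold. The untreated array was the lowest of the 5 arrays without test serum for 6 of these 8 genes, for 14 of the 59 members (23.7%) and for 25.9% of all genes. All 4 compound differences rest on that 1 array, and the 6 genes were HSPH1, HSP90AA1, DNAJB1, DNAJB4, BAG3 and HSPE1. With pycnogenol serum against control serum the median of the 8 was 0.06, with 6 above 0, where 51.6% of all genes were.

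**Figure D4:**
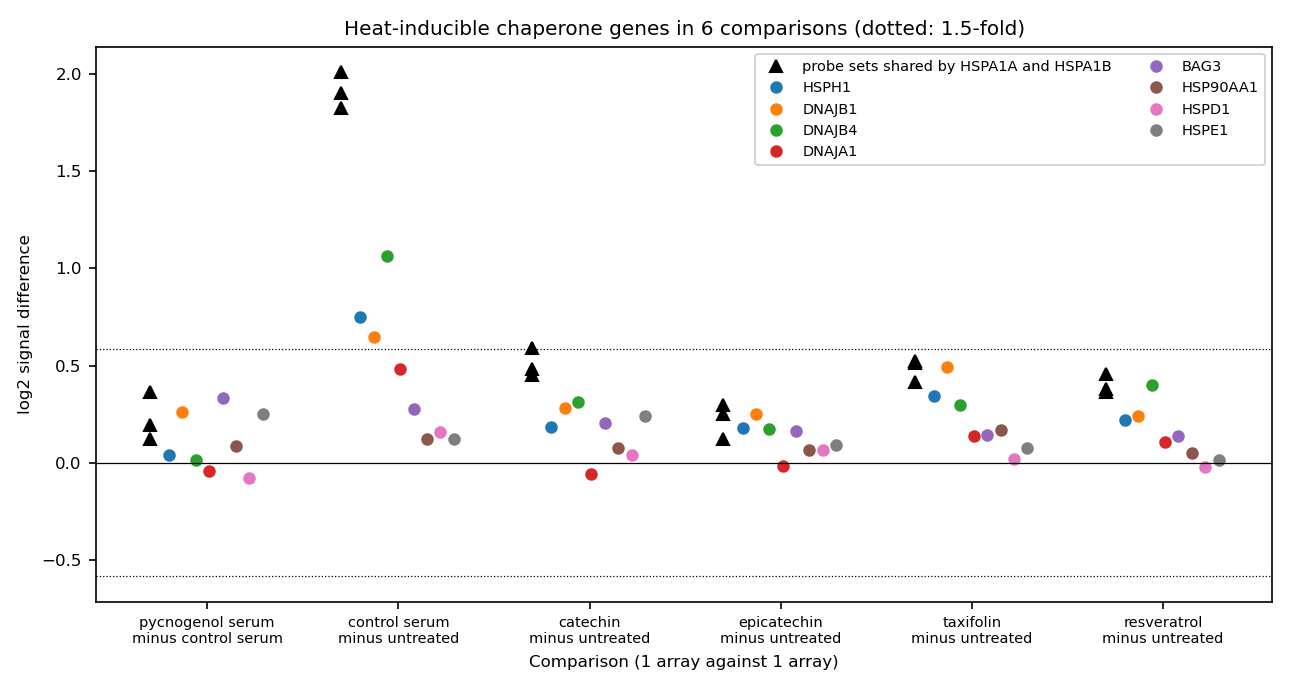
log2 signal difference (y axis) of 8 heat-inducible genes (circles) and of the 3 probe sets shared by HSPA1A and HSPA1B (triangles) in 6 comparisons of 1 array with another (x axis). The shared probe sets lie at 1.83 to 2.01 for control serum minus untreated and at or under 0.59 elsewhere. The value of 0.59, for catechin minus untreated, just passes the dotted 1.5-fold line. HSPH1, DNAJB1 and DNAJB4 pass that line only for control serum minus untreated.

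Epicatechin and taxifolin were the only compounds given at an equal dose and time, which left 1 pair to compare, without a test or an interval since each was measured once. Taxifolin carries a keto group that epicatechin lacks. The median of epicatechin minus taxifolin over the 59 members was 0.01, against -0.0007 over all genes. No member differed by 1.5-fold, where 2.06% of all genes were higher and 1.41% lower. Of the 4944 genes above the 75th percentile of gene means, 42 were higher and 17 lower. The largest values were DNAJC30 at 0.45, BAG1 at -0.38, DNAJC24 at 0.35, DNAJB11 at -0.33 and BAG5 at -0.31. The 8 inducible genes had a median of -0.11, with 3 above 0, where 49.8% of all genes were. Catechin, a stereoisomer of epicatechin, and resveratrol, a stilbene, were given at other doses, and their values stand above without a comparison.

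Among other folding genes, outside the symbol rule, the differences were mostly small. Of 35 co-chaperones, prefoldins, mitochondrial proteases and related genes listed by name, 30 lay above the filter, with a median of 0.06 for control serum minus untreated and 17 above 0 (51.3% of all genes). At 1.5-fold FKBP5, a steroid-receptor co-chaperone and glucocorticoid target, was higher at 0.67, where 3.17% of all genes were, and none was lower. Both serum arrays lay above the others for 8 of the 30: PTGES3 (p23), CHORDC1, ST13 (HIP), SERPINH1 (HSP47), PPID, FKBP5, GRPEL1 and CACYBP. They lay below for HSPBAP1 and LONP1, and over all genes 13.5% lay above and 16.1% below. CHORDC1, an HSP90 co-chaperone, had 19196 and 19549 with pycnogenol and control serum, 16267, 16175, 16308 and 15882 with the compounds and 14989 untreated, at 0.38.

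Of 17 endoplasmic reticulum chaperones and their regulators, 10 lay above 0 for control serum minus untreated, where 51.3% of all genes did. Their median was 0.07, and SDF2L1 at 1.01, MANF at 0.83 and CRELD2 at 0.65 were higher by 1.5-fold, where 3.17% of all genes were. Both serum arrays lay above the others for 4 of the 17 and below for 3, where 13.5% and 16.1% of all genes did. Pycnogenol serum minus control serum had a median of -0.05 over them, with HERPUD1 at -0.96 and XBP1 at -0.81 lower by 1.5-fold, where 2.34% of all genes were.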

How the data were processed

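Gene expression was measured on Affymetrix U133 Plus 2.0 arrays, 1 array for each of the 7 cultures. The deposited values are 1 signal intensity for each of 54675 probe sets, which the authors computed with MAS5, per the submitters' processing notes; its version and detection calls are not given in the sources used here. With 2% trimmed from either end, the signals of every array averaged 1000. An array signal is no count of molecules, and precision here is limited by how few arrays there are.

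The platform's annotation table assigned 41097 probe sets to 1 gene and 1801 to several, and 11777 had no entry; all 84 member symbols were found in RefSeq. Signals under the 25th percentile, 34.9, were raised to it before taking log2. A gene was read from its probe set of highest mean log2 signal, and the 9888 genes at or above the median of those means (8.07) were compared. Genes were called at 1.5-fold or 2-fold, or where both serum arrays lay above or below the 5 others. No test was made. Named genes are the members, the listed genes and, in each comparison, members among the 10 with the largest differences. The members and lists were chosen with earlier results of these data known. The calculations used Python 3.11.15, numpy 2.4.6 and pandas 2.3.3, and were tested on simulated data. Alternative settings changed the normalization, the filter, the floor, the probe sets and the arrays used.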

Additional observations from a re-analysis of the deposited data

Results flagged for a closer look

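Several probe sets that the member rule leaves out had higher signals with control serum than untreated. The brightest of the 3 probe sets assigned to both HSPA1A and HSPA1B had a log2 difference of 1.90 for control serum minus untreated, the one assigned also to HSPA1L had 2.01 and the remaining one 1.83. The brightest probe set assigned to TCP1 and SNORA29 had 0.62, with signals of 21747 and 25656 with pycnogenol and control serum, 15669 to 20308 with the compounds and 16705 untreated, while the other 2 probe sets of that pair had 0.06 and 0.31. No group held more than 1 array, so no group could be searched for a deviating array.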

How the results depend on the processing

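No paired analysis was possible because each group held 1 array. A member median was taken as unchanged when it moved by less than 0.029, its root mean square over the 10 pairs of arrays without test serum, a single gene when it moved by less than the SD of its log2 signal over the 5 arrays without test serum, and a count when it stayed within 1.5 times. By these bounds 75 of 103 medians and counts were unchanged, and so were 101 of 122 values of single genes, none of which changed sign. Both totals include values that could not move. The filters, the floor and the shared probe sets leave a single gene's value as it was, so they show nothing about single genes. The 103 also include the counts with 1 array left out, and no median or count moved without the floor. Of 69 member medians under other settings, 11 had the opposite sign and 3 were 0, all of them in the comparisons of compounds or of the 2 sera, where the reported medians were -0.0033 to 0.06. The count of members with both serum arrays above the others, 27, was 19 to 34 over all settings, with 34 under centring on array medians, where 26.4% of all genes lay above, and 22 under quantile normalization, where 13.5% did. Leaving out 1 of the 5 other arrays in turn gave 28 to 31, where 14.5% to 16.6% of all genes lay above; this can only keep or raise the count and shows nothing about stability. The count below the others, 7 of 59, was 4 of 43 with the 75th percentile filter and 4 of 59 under centring. Over all genes 16.1% lay below in the reported setting, and the shares under these other settings are not given here. Of 59 members, 5 were 1.5-fold higher with control serum, where 3.17% of all genes were. With the 75th percentile filter 2 of 43 were, where 97 of 4944 genes were. The count was 8 of 59 under centring and 8 of 84 without a filter. It was 8 of 64 with the probe sets shared among members, a setting chosen after seeing the data. The shares of all genes for these counts of 8 are not given here. Centring moved the median of all genes to 0.18 for control serum minus untreated, and to 0.11 for both serum arrays minus the others, 0.10 for catechin and 0.11 for epicatechin. The member medians under it were 0.32 for control serum, 0.22 for both serum arrays, 0.086 for catechin, 0.097 for epicatechin, 0.078 for taxifolin and -0.057 for pycnogenol minus control serum, and resveratrol turned to -0.030, where the median of all genes was -0.067. With a gene's probe sets averaged they were 0.11 for control serum, 0.16 for both serum arrays, -0.020 for catechin, -0.078 for epicatechin, -0.057 for taxifolin, 0.017 for resveratrol and -0.045 for epicatechin minus taxifolin. Without a filter control serum gave 0.092. Without probe sets of the suffixes _x_at and _s_at, pycnogenol minus control serum gave -0.068, resveratrol 0.090 and epicatechin minus taxifolin -0.025. With shared probe sets, resveratrol gave 0.093 and epicatechin minus taxifolin -0.027, which was -0.027 with the 75th percentile filter as well. Quantile normalization gave -0.014 for taxifolin. The causes were not tested. HSPA2 and HSPA12A each rest on 1 probe set above the filter.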
